A study of Mus musculus with 2 samples.

Results

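Cxcl12, Cxcr4 and Ackr3 encode a chemokine and its receptors, and they are 3 of the 32285 genes in the deposited gene list. They were selected by symbol, with earlier results of these data known, and all 3 were found in the list. Their transcripts were followed through the cell classes of the mouse dorsal telencephalon, the part of the forebrain that forms the cerebral cortex, at embryonic day 16.5 (E16.5). Expression was measured by droplet-based single-cell RNA sequencing in 2 wild-type (WT) libraries, labelled WT replicate 1 and WT replicate 6. Both came from papain-dissociated tissue that the labels also call brain hemispheres, from a line that the titles call EmxDot, and both have the genotype WT. Which alleles of that line these embryos carried, such as a Cre allele, is not stated in the labels, and no treatment is given. Both titles share a number before the replicate number, and they do not say what it stands for. The labels do not say whether the libraries came from separate embryos or pools, so that p-values measure only the spread between these 2 libraries, which may be technical. Samples with a conditional deletion of Dot1l were not analysed here.

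CXCL12 is a secreted chemokine of the meninges, the vessel wall and parts of the cortical wall. CXCR4 is its Gi-coupled receptor, through which migrating neurons follow the ligand. ACKR3, also called CXCR7, binds CXCL12 with high affinity, signals mainly through arrestins rather than G proteins, and takes the ligand up for degradation. In the embryonic cortex, interneurons from the medial ganglionic eminence (MGE) and Cajal-Retzius cells are known to keep to their tangential routes with the help of this axis.

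In the GRCm38.p6 assembly of RefSeq, Cxcl12 (ENSMUSG00000061353) spans positions 117168535 to 117181368 of chromosome 6 on the plus strand. Both receptor genes lie on chromosome 1, Cxcr4 (ENSMUSG00000045382) from 128588199 to 128592299 on the minus strand and Ackr3 (ENSMUSG00000044337) from 90203980 to 90215724 on the plus strand. The counts are per gene and do not tell exon from intron or one transcript from another.

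Values are unique molecular identifiers (UMIs), each of which marks a captured RNA molecule. The libraries held 14136 and 13046 barcodes with medians of 2967 and 3381.5 UMIs, and 8139 and 8209 barcodes had between 1500 and 60000 UMIs with under 10% mitochondrial UMIs. After 1777 cells with high doublet scores were left out, 14571 cells remained, of which 10632 (73.0%) fell into 1 of 18 classes gated by marker genes, while 2483 met no gate and 1456 met several. The classes held between 58 (oligodendrocyte precursors) and 3646 cells (excitatory neurons outside the newborn and deep-layer gates). They included 455 striatal neurons and 334 ganglionic eminence progenitors, classes named for parts of the forebrain outside the cortex. The interneuron gates may therefore also hold cells from outside the cortex, which were not told apart. The cells left out as doublets fell unevenly over the gates. They were 56 endothelial cells beside 113 kept, 70 mural cells beside 167 and 67 fibroblasts beside 169. For MGE interneurons they were 48 beside 958. The gate thresholds were set after the data had been seen. The share of cells that only just met a gate was 16.0% for Sst+ MGE interneurons and 19.2% for Sst- MGE interneurons, but 44.4% for interneurons of the caudal ganglionic eminence (CGE), 61.4% for newborn excitatory neurons and 77.6% for dorsal LGE-type neurons. In all, 59 barcode sequences occurred in both libraries.

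Over all barcodes the files held 6748 UMIs of Cxcl12, 955 of Cxcr4 and 3786 of Ackr3, of which 4630, 526 and 2009 lay in cells of a class. Cells left out as doublets held 1429 UMIs of Cxcl12 (21.2% of all), 131 of Cxcr4 and 568 of Ackr3. The remaining UMIs were divided very differently between the classes. Fibroblasts held 61.5% of the Cxcl12 UMIs in classes but made up 1.59% of the cells, and the vascular classes (mural and endothelial cells) held 15.2%. MGE interneurons, 9.01% of the cells, held 67.7% of the Ackr3 UMIs and 31.6% of the Cxcr4 UMIs. The UMIs of Cxcr4 were the least concentrated in a single group. Radial glial cells (RGCs) with intermediate progenitor cells (IPCs) held 22.8% of them and were 13.1% of the cells. Cajal-Retzius cells held 9.70% (0.856% of the cells) and vascular cells 9.13% (2.63% of the cells). The other GABAergic classes held 12.9%, close to their 13.5% of the cells. Excitatory neurons held 11.6%, far below their 53.0% of the cells.

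**Figure D1:**
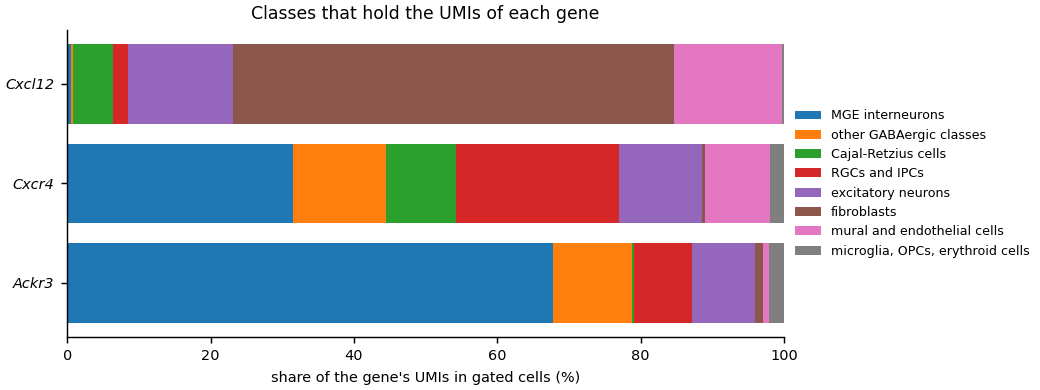
The bars show, for each gene, the percent of its UMIs in classes that lay in each group of classes, both libraries together. Fibroblasts held 61.5% of the Cxcl12 UMIs, MGE interneurons held 67.7% of the Ackr3 UMIs, and no group held more than 31.6% of the Cxcr4 UMIs.

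Levels below are in CPM, the UMIs of a gene per 1000000 UMIs of its class in a library, given for WT replicate 1 and then WT replicate 6. Cxcl12, the ligand, reached 1294 and 1324 CPM in fibroblasts (1309 ± 21.2, SD, n = 2). Endothelial cells followed with 528 and 459 CPM (493 ± 48.8, SD, n = 2), and with a mean of 296 CPM when doublets were kept. Cajal-Retzius cells, the Reln-producing neurons of the marginal zone, held 257 and 255 CPM (256 ± 1.02, SD, n = 2). These were the 3 highest classes, and no library of a lower class reached any of them.

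Among the remaining classes Cxcl12 stood out in the newborn part of the excitatory lineage. Newborn excitatory neurons held 33.0 and 31.8 CPM, IPCs 14.1 and 19.4 CPM, and mural cells 10.8 and 13.4 CPM. Excitatory neurons outside the newborn and deep-layer gates held 7.22 and 5.90 CPM, deep-layer excitatory neurons 3.88 and 4.44 CPM, and RGCs, the apical progenitors of the cortex, 2.17 and 3.04 CPM. Down to mural cells each class lay above the next in both libraries. Below newborn neurons and IPCs, the other 13 classes had means between 0.549 and 12.1 CPM, and below mural cells most neighbours in the order overlapped. MGE interneurons held 18 and 6 Cxcl12 UMIs in all, that is 8.28 and 3.08 CPM.

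Because depth differed between classes, the share of cells with a UMI was also counted after each cell had been thinned to 1500 UMIs. In fibroblasts 77.5% of thinned cells carried a Cxcl12 UMI (95% Wilson interval 70.6 to 83.2%, counting error only, as for all intervals here), against 95.9% of unthinned cells at median depths of 13427 and 12204 UMIs. The thinned share was 21.2% (14.7 to 29.7%) in endothelial cells and 17.6% (11.1 to 26.7%) in Cajal-Retzius cells, from unthinned shares of 34.5% and 36.3%. Newborn excitatory neurons had a thinned share of 5.13% (4.15 to 6.32%) and IPCs of 2.80%, from unthinned shares of 17.8% and 12.2%. In erythroid cells and microglia, taken as a stand-in for free RNA, the thinned shares were 0.44% and 0.60% at median depths between 2953 and 6903 UMIs. Of the erythroid cells 61.9% only just met their gate, so that this class may hold other cells. As point values, the shares in the 5 highest classes lay above those of erythroid cells and microglia. Barcodes under 1500 UMIs, however, held 24.4 and 26.2 CPM of Cxcl12, above the 14.1 and 19.4 CPM of IPCs. The source of those UMIs was not tested, so that the IPC level is not shown to exceed free RNA. Intervals were not compared, so that the margin of IPCs is not set against counting error.

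**Figure D2:**
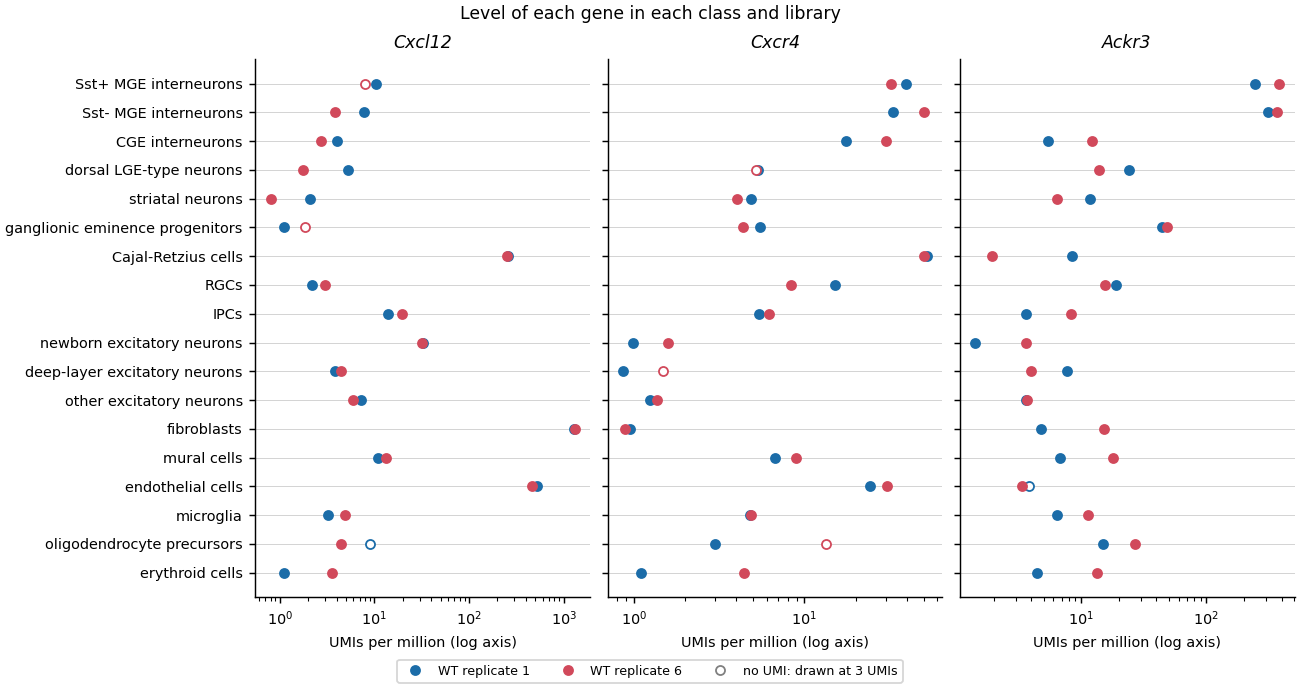
Each point is the level of a gene in a class in 1 library (CPM, log axis), with the classes as rows; open points mark libraries without a UMI, drawn at the level of 3 UMIs. Cxcl12 was highest in fibroblasts (1294 and 1324 CPM), Cxcr4 in Cajal-Retzius cells (52.6 and 50.6 CPM) and Ackr3 in the MGE classes (246 to 384 CPM). Without its highest cell, the Cajal-Retzius class held 40.8 and 50.6 CPM of Cxcr4, which overlapped Sst- MGE interneurons.

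**Figure D3:**
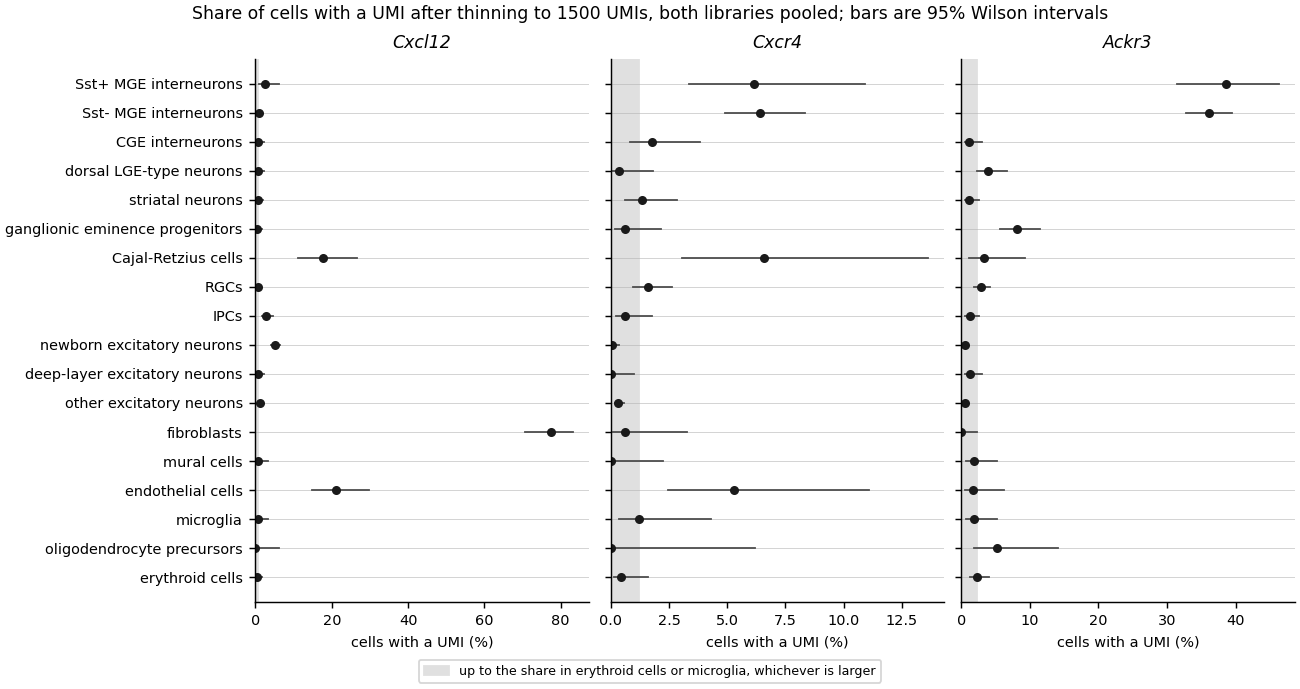
The points give the percent of cells with at least 1 UMI of each gene after thinning to 1500 UMIs per cell, by class, with 95% Wilson intervals as bars and both libraries pooled; the grey band reaches to the larger share of erythroid cells and microglia. The shares of Ackr3 in Sst- and Sst+ MGE interneurons, 36.1% and 38.7%, lay above those of every other class.

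Cxcl12 was compared among fibroblasts and vascular cells first. Fibroblasts held 2.72 times the level of endothelial cells (log2 difference 1.44 ± 0.18, SE; adjusted p = 2.92e-05, edgeR quasi-likelihood test on class sums with Benjamini-Hochberg adjustment over all genes tested, as for all adjusted p-values here). In this comparison 39% of the 9734 genes tested passed, 19.3% higher and 19.8% lower in fibroblasts. Mural cells, the pericytes and smooth muscle cells of the vessel wall, lay far under endothelial cells, with a difference of -5.36 ± 0.25 (41.0-fold; adjusted p = 1.45e-09), where 32.7% of 8848 genes passed, 16.2% higher and 16.5% lower. The mural level was therefore the lowest of the 3 mesenchymal and vascular classes. Fibroblast markers summed to 6838 and 6945 CPM in fibroblasts, 601 and 618 CPM in mural cells and 80.3 and 69.4 CPM in endothelial cells, where 4 of 8 fibroblast markers had a UMI and Col1a1, Dcn, Lum and Aldh1a2 had none.

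The level of Cxcl12 was unevenly spread over endothelial cells. It was found in 39 of 113 cells, and 1 cell of WT replicate 1 held 138 UMIs, 20.1% of the class total; without that cell the levels were 363 and 459 CPM. The 58 endothelial cells with a UMI of 2 or more arterial markers held 900 and 701 CPM, whereas the other 55 held 21.1 and 14.4 CPM. The summed levels of these subsets did not overlap over the libraries. In fibroblasts, by contrast, 162 of 169 cells carried the transcript, with a median of 16 UMIs, and 124 cells held 10 or more.

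Fibroblasts, the class with the highest Cxcl12 level, were also compared with IPCs, the basal progenitors of the subventricular zone. The fibroblast markers give no position, so that meningeal fibroblasts were not told apart from others. Cxcl12 was 90.0 times higher in fibroblasts (log2 difference 6.49 ± 0.20; adjusted p = 1.27e-09), in a comparison in which 51.8% of 11534 genes passed, 28.1% higher and 23.7% lower.

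Within the excitatory lineage Cxcl12 was higher in IPCs than in RGCs and higher in newborn than in deep-layer neurons. IPCs held 6.74 times the level of RGCs (log2 difference 2.75 ± 0.35; adjusted p = 0.000366), and 35.6% of 12462 genes passed, 16% higher and 19.6% lower in IPCs. With classes taken from clusters the difference was 0.43 with an adjusted p of 0.386, with doublets kept it was 1.42 with an adjusted p of 0.0204, and with 1 more marker per gate it was 2.81 with an adjusted p of 0.000474. Newborn excitatory neurons held 7.44 times the level of deep-layer neurons (log2 difference 2.90 ± 0.22; adjusted p = 9.14e-06), where 32.7% of 12673 genes passed, 14.7% higher and 18% lower in newborn neurons. Fibroblast markers summed to 5.90 and 4.13 CPM in IPCs and to 7.91 and 3.47 CPM in newborn neurons, and endothelial markers to 8.62 and 7.85 CPM in IPCs and to 5.79 and 7.96 CPM in newborn neurons. In cells without a UMI of either list, Cxcl12 stood at 15.1 and 19.6 CPM in IPCs and at 33.2 and 31.3 CPM in newborn neurons, close to the levels of all cells.

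Newborn excitatory neurons were not alike in Cxcl12. The clusters were built without the 3 genes and serve as a description. Newborn neurons of a cluster led by Eomes and Nrn1 (319 cells) held 91.0 and 89.0 CPM, and those of a cluster led by Tfap2d, Tafa1 and Thsd7a (234 cells) held 60.8 and 50.2 CPM. In a cluster led by Unc5d, Ltbp1 and Sema3c (601 cells) the levels were 16.9 and 17.5 CPM. These 3 clusters, chosen for description after their values were seen, did not overlap over the libraries, and in the cluster led by Tfap2d most gated cells belonged to the other excitatory neurons. Newborn-gated cells also lay in 5 further clusters of 22 or more such cells, with means from 1.72 to 62.5 CPM; the most numerous of them, with 279 cells, held 3.05 and 2.99 CPM. Likewise, the 333 newborn neurons with a UMI of Eomes, which encodes the transcription factor of the IPC state, held 57.5 and 68.5 CPM, and the 1265 without one held 26.9 and 20.6 CPM. Cycling IPCs (162 cells) held 3.4 and 10.5 CPM of Cxcl12, below the 21.1 and 24.4 CPM of the other 338 IPCs.

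**Figure D4:**
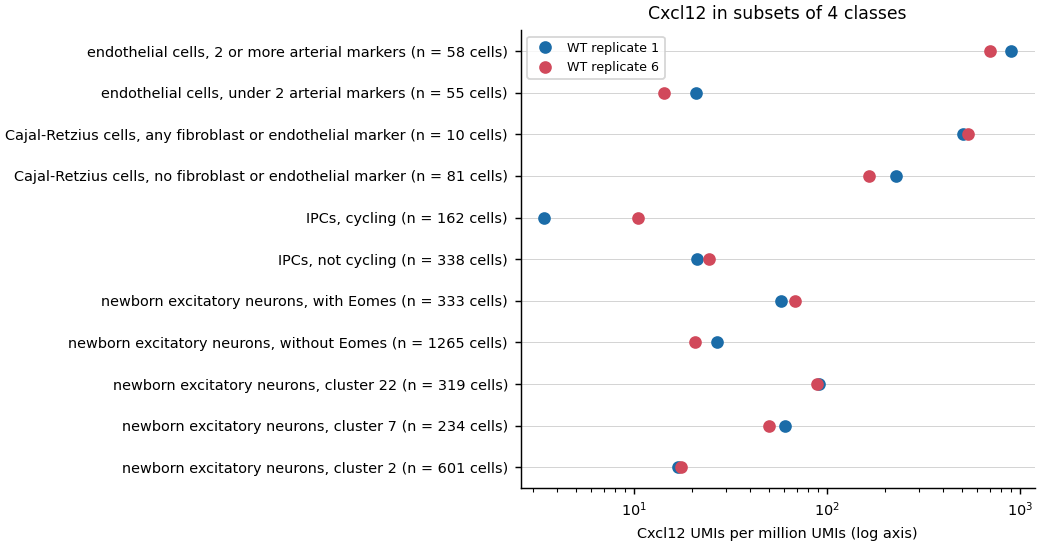
The level of Cxcl12 (CPM, log axis) is shown for each library in subsets of endothelial cells, newborn excitatory neurons, IPCs and Cajal-Retzius cells. Endothelial cells with 2 or more arterial markers held 900 and 701 CPM and the others 21.1 and 14.4 CPM, and newborn neurons with an Eomes UMI lay above those without in both libraries. Clusters 22, 7 and 2 are those described in the text, in its order, and the values are of their newborn-gated cells.

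In Cajal-Retzius cells Cxcl12 was 40.0 times higher than in MGE interneurons (log2 difference 5.32 ± 0.26; adjusted p = 6.91e-10). In this comparison 37.5% of 10450 genes passed, 19.6% higher and 17.9% lower in Cajal-Retzius cells. The difference was 4.92 within WT replicate 1 and 6.26 within WT replicate 6, where the interneurons held 6 UMIs. It was carried by part of the class: 33 of 91 cells had a UMI, the 5 highest cells held 53.4% of the UMIs, and 1 cell of WT replicate 6 held 61 UMIs, or 24.1%. Without that cell the levels were 257 and 149 CPM, still above every class but fibroblasts and endothelial cells. Fibroblast markers summed to 2.10 and 7.79 CPM in the class, with 4 of 8 at 0 (Col1a2, Col3a1, Dcn and Aldh1a2), and endothelial markers to 8.41 and 5.84 CPM, with 5 of 8 at 0. The 81 Cajal-Retzius cells without a UMI of either list held 228 and 164 CPM, and the 10 cells with one held 507 and 540 CPM.

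Cxcr4, the signalling receptor, was highest in Cajal-Retzius cells, with 52.6 and 50.6 CPM. Sst- MGE interneurons held 33.1 and 50.3 CPM and Sst+ MGE interneurons 39.6 and 32.0 CPM. Endothelial cells held 24.2 and 30.5 CPM. Among these 4 classes Cajal-Retzius cells lay above the others in both libraries, by a margin of less than 1 CPM over Sst- interneurons of WT replicate 6, and the MGE classes overlapped each other. In WT replicate 1, 1 Cajal-Retzius cell held 6 of the 51 Cxcr4 UMIs of its class. Without that cell the levels were 40.8 and 50.6 CPM, which overlapped those of Sst- MGE interneurons over the libraries. CGE interneurons followed with 17.6 and 30.1 CPM, which overlapped endothelial cells, and RGCs with 15.2 and 8.30 CPM. The other 12 classes had means between 0.431 and 7.83 CPM, and in fibroblasts, where Cxcl12 was highest, each library held 1 Cxcr4 UMI.

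After thinning, 6.59% of Cajal-Retzius cells (95% Wilson interval 3.06 to 13.7%), 6.13% of Sst+ (3.37 to 10.9%) and 6.42% of Sst- MGE interneurons carried a Cxcr4 UMI, and so did 5.31% of endothelial cells. Unthinned cells gave 30.8%, 14.1%, 14.8% and 21.2%, but they differed in depth, with medians of 8576 and 8342 UMIs for Cajal-Retzius cells, 10354 and 11057 for endothelial cells and 4884 and 4661.5 for Sst+ interneurons. The thinned share of Cajal-Retzius cells came from 5 of 49 cells in WT replicate 1 but 1 of 42 in WT replicate 6. CGE interneurons had a thinned share of 1.78% and RGCs of 1.57%, against 0.44% in erythroid cells and 1.20% in microglia. In cells thinned to 3000 UMIs the shares were 7.98% in CGE interneurons and 3.40% in RGCs, against 1.71% in microglia and no erythroid cell. The shares of CGE interneurons and RGCs thus lay near that of microglia at 1500 UMIs and above it at 3000 UMIs, and their CPM levels lay above the 0 and 4.88 CPM of microglia. Barcodes under 1500 UMIs held 12.2 and 13.7 CPM of Cxcr4, which lay between the library values of RGCs. The source of those UMIs was not tested, so that the RGC level is not shown to exceed free RNA.

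Ackr3, the atypical receptor, was largely a transcript of MGE interneurons. Sst- cells held 309 and 367 CPM and Sst+ cells 246 and 384 CPM, which overlapped each other. Ganglionic eminence progenitors came next with 43.9 and 48.4 CPM, and oligodendrocyte precursors with 15.1 and 26.9 CPM. No other class reached the lowest MGE value, and ganglionic eminence progenitors lay above the remaining 15 classes in both libraries. In cells without a fibroblast or endothelial marker UMI, oligodendrocyte precursors had a mean of 49.2 CPM, which rests on 1 UMI per library in 5 cells, and ganglionic eminence progenitors 47.7 CPM. Dorsal LGE-type neurons held 24.0 and 14.0 CPM and RGCs 19.0 and 15.5 CPM. CGE interneurons held 5.42 and 12.3 CPM, which overlapped the 4.42 and 13.4 CPM of erythroid cells. In the erythroid class 1 cell held 5 of the 19 Ackr3 UMIs.

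In thinned cells the share with an Ackr3 UMI was 38.7% in Sst+ interneurons (31.5 to 46.3%) and 36.1% in Sst- interneurons (32.8 to 39.5%), from unthinned shares of 66.9% and 59.1%. Ganglionic eminence progenitors had a thinned share of 8.08% (5.61 to 11.5%) and RGCs of 2.81%. The share of CGE interneurons, 1.18%, lay under those of erythroid cells, 2.22%, and microglia, 1.81%. This order turned in cells thinned to 3000 UMIs, where CGE interneurons had 3.29%, erythroid cells 1.51% and microglia 0.855%, so that no order is read from these low shares. Over the MGE class 579 of 958 cells carried the transcript, with a median of 2 and a maximum of 9 UMIs per positive cell, and 62 cells held 5 or more, so that no single cell carried the level.

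To ask which receptor marks MGE interneurons, they were compared with all excitatory neurons. MGE interneurons held 295 and 370 CPM of Ackr3 (333 ± 53.2, SD, n = 2), and excitatory neurons 3.39 and 3.68 CPM, a difference of 89.5-fold (log2 6.48 ± 0.14; adjusted p = 5.27e-09). For Cxcr4 the values were 34.5 and 46.8 CPM against 1.13 and 1.32 CPM, or 31.3-fold (log2 4.97 ± 0.23; adjusted p = 4.61e-07). Cxcl12 went the other way, at -1.29 ± 0.32 (adjusted p = 0.0120), with 14.3 and 12.9 CPM in excitatory neurons. In this comparison 35.8% of 15245 genes passed, 16.6% higher and 19.2% lower in MGE interneurons. All 3 genes kept these directions within each library, and the call on Cxcl12 was lost without the filter on low counts (adjusted p = 0.0585).

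Between the interneuron origins the receptors differed in size of effect. Ackr3 was 37.2 times lower in CGE than in MGE interneurons (log2 difference -5.22 ± 0.27; adjusted p = 2.31e-06), in a comparison in which 7.69% of 10163 genes passed, 3.56% higher and 4.13% lower in CGE interneurons. The difference of Cxcr4 was -0.76 ± 0.30 and did not pass (adjusted p = 0.197); when 1 more marker was required of every class it was -1.18 with an adjusted p of 0.0358. Cxcl12 had too few UMIs in these classes for a test.

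Sst+ and Sst- MGE interneurons were then compared, since somatostatin marks a main branch of the MGE lineage. Ackr3 differed by -0.15 ± 0.21 (adjusted p = 0.853), with -0.33 within WT replicate 1 and 0.07 within WT replicate 6. Cxcr4 differed by -0.23 ± 0.32 (adjusted p = 0.854), with 0.28 and -0.60 within the libraries. Both receptors thus changed sign between libraries, and 1.04% of 9476 genes passed, 0.728% higher and 0.317% lower in Sst+ cells. The Sst gate rests on detected UMIs: an Sst UMI was found in 17.0% of MGE interneurons, but also in 3.3% of CGE interneurons, 3.9% of excitatory neurons and 5.1% of erythroid cells, so that Sst- cells are those without a detected Sst UMI.

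Receptor levels inside the MGE gate were also described by cluster, which was not tested against the split by Sst. In the clusters that held most of them, with 392 and 486 cells, Ackr3 stood at 323 and 388 CPM and at 341 and 415 CPM, and Cxcr4 at 26.9 and 42.7 CPM and at 50.3 and 56.6 CPM. The 50 MGE-gated cells of a further, Sst-led cluster, of which 38.0% carried an Sst UMI, held 20.5 and 14.7 CPM of Ackr3 and no UMI of Cxcr4. Ackr3 in these 50 cells lay under both larger clusters in each library. They were 50 of the 97 cells of that cluster that met a single gate. The larger clusters overlapped each other in Ackr3 over the libraries, but not in Cxcr4.

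Cajal-Retzius cells and MGE interneurons, both known to move through the marginal zone, were compared next. Cxcr4 did not differ beyond its error (log2 difference 0.24 ± 0.26; adjusted p = 0.504). Ackr3, at 8.41 and 1.95 CPM in Cajal-Retzius cells, was 69.6 times lower there (log2 difference -6.12 ± 0.35; adjusted p = 3.08e-09). Markers of MGE interneurons summed to 52.6 and 89.6 CPM in Cajal-Retzius cells and to 6175 and 6577 CPM in MGE interneurons.

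Among progenitors both receptors were measured at low levels. Ackr3 was 2.72 times lower in IPCs (3.63 and 8.27 CPM) than in RGCs (log2 difference -1.45 ± 0.34; adjusted p = 0.0109), a call that DESeq2 did not make (adjusted p = 0.0716). Cxcr4 differed by -0.95 ± 0.39 (adjusted p = 0.0881) and passed with library as a block (adjusted p = 0.0415). RGCs that were not cycling (448 cells) held more Ackr3, 29.6 and 24.9 CPM, than the 441 cycling RGCs, 12.5 and 9.5 CPM, whereas Cxcr4 overlapped between them, at 16.4 and 11.4 against 14.5 and 6.3 CPM. In newborn against deep-layer neurons Ackr3 differed by -1.31 ± 0.53 and did not pass (adjusted p = 0.0884).

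In the vessel wall Cxcr4 was highest in endothelial cells. It was lower in fibroblasts than in endothelial cells at -4.64 ± 0.60 (adjusted p = 4.24e-05); since fibroblasts held 2 UMIs, the fitted value depends on the prior count, and the ratio of endothelial to fibroblast CPM was 29.3 with a counting interval of 7.55 to 251. Mural cells, with 6.75 and 8.92 CPM, also lay under endothelial cells (log2 difference -1.79 ± 0.45; adjusted p = 0.00631), which DESeq2 did not call (adjusted p = 0.247). Ackr3 was not detected in endothelial cells of WT replicate 1 and stood at 3.39 CPM in WT replicate 6. Between fibroblasts and IPCs its difference was 0.95 ± 0.56 (adjusted p = 0.183).

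Over the 9 comparisons, 21 of 27 member differences had enough counts to be tested and 14 passed, where the share of all genes that passed ran from 1.04% to 51.8%. Those 14 kept their sign in both libraries and in every alternative fit, and 10 passed in each alternative.

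**Figure D5:**
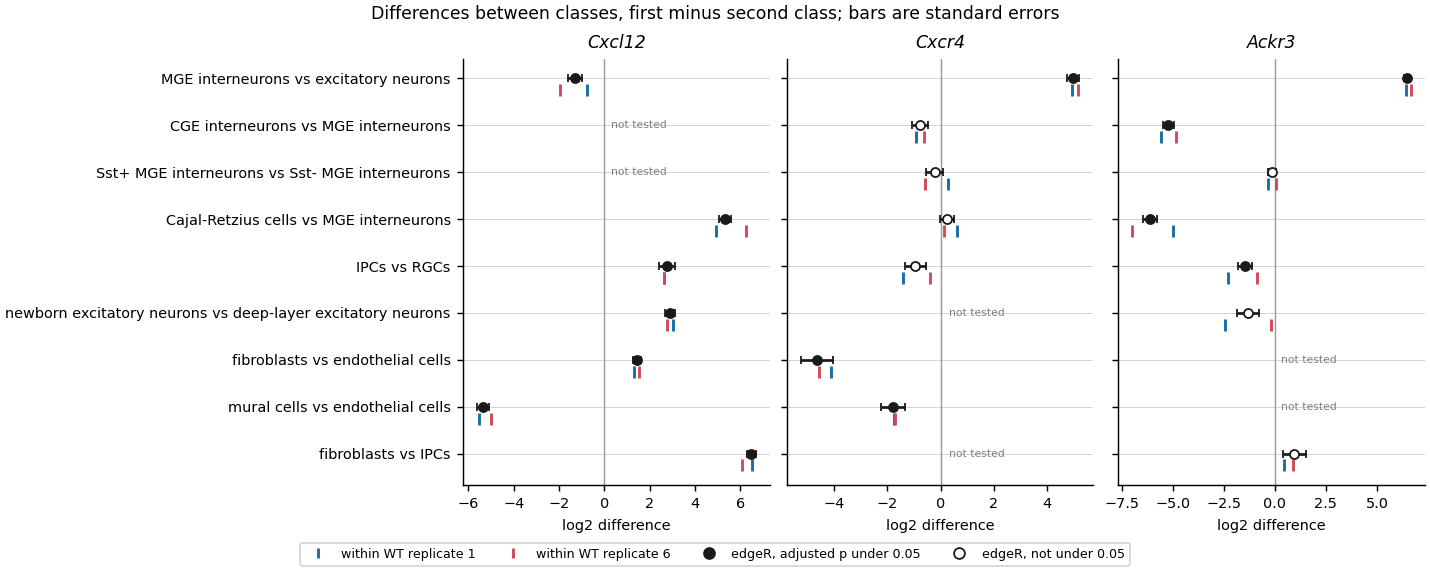
The points show log2 differences of the 3 genes in the 9 comparisons of cell classes, with standard errors as bars, filled where the adjusted p was under 0.05, and coloured ticks for the difference within each library. The largest differences were those of Cxcl12 between fibroblasts and IPCs (6.49) and of Ackr3 between MGE interneurons and excitatory neurons (6.48), and Ackr3 and Cxcr4 lay near 0 between Sst+ and Sst- interneurons.

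The receptors were also counted within the same cells. In MGE interneurons of WT replicate 1, 52 of 61 Cxcr4-positive cells carried an Ackr3 UMI (85.2%), against 54.5% of Cxcr4-negative cells. In WT replicate 6 it was 52 of 80 (65.0%) against 62.0%. After thinning, with both libraries together, the shares were 50.8% and 35.6%. Unthinned cells thus showed a wider margin in WT replicate 1. Thinned cells gave 46.2% (12 of 26) against 31.9% in WT replicate 1 and 54.3% (19 of 35) against 39.3% in WT replicate 6. Among Sst+ and Sst- cells of each library, only Sst+ cells of WT replicate 1 had the reverse order, 33.3% (2 of 6) against 37.0%. These counts are small and the margin was not tested. In Cajal-Retzius cells, where the ligand and Cxcr4 were both present, 11 of 19 Cxcl12-positive cells of WT replicate 1 and 9 of 14 of WT replicate 6 carried a Cxcr4 UMI (57.9% and 64.3%), against 10.0% and 17.9% of the others. After thinning only 6 of 91 cells kept a Cxcr4 UMI, too few to compare the shares at equal depth.

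Across the 36 class-by-library sums, the levels of the 3 genes were not parallel, as described by Pearson's r of log2(CPM + 10). It was 0.21 for Cxcl12 with Cxcr4, -0.30 for Cxcl12 with Ackr3 and 0.47 for the receptors. Classes of a library share its chemistry and depth, so that r is a description. The genes most like Ackr3 were Lhx6 (0.93), the MGE transcription factor that is itself a marker of the gate, Thbs1 (0.92), Nxph2 (0.92), Gm13986 (0.90) and Cacng3 (0.89). Those most like Cxcr4 were Epb41l4a (0.85), Iqsec1 (0.82), Pnoc (0.75), Rcan2 (0.75) and Gm49085 (0.73). For Cxcl12 they were Fam43a (0.88), Stra6 (0.87), Pgm5 (0.85), Lef1 (0.83) and Apod (0.83).

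The list of 29 further genes of the pathway, of which 28 were in the gene list, held other ligands, co-receptors, Gi proteins, arrestins, receptor kinases and motility effectors. Between MGE interneurons and excitatory neurons 25 were tested and 12 passed, 7 higher and 5 lower, beside 35.8% of all genes, with a list median of -0.03 against -0.04 over all genes. Dock2 and Elmo1, which form a complex that activates Rac at the front of migrating cells, were higher in MGE interneurons at 3.34 ± 0.36 (adjusted p = 0.000115) and 2.97 ± 0.11 (adjusted p = 1.09e-07), and Stat3 was higher at 1.66. Mif, a cytokine that also binds CXCR4, was lower at -0.90, the small GTPase Cdc42 at -0.50 and the receptor kinase Grk6 at -0.44. Between CGE and MGE interneurons 5 of 22 passed, 4 higher and 1 lower, beside 7.69% of all genes, with a median of 0.16 against -0.01. Cxcl14, a chemokine reported to bind CXCR4, was higher in CGE interneurons at 3.46 ± 0.56 (adjusted p = 0.00375). Rgs16, a GTPase activator of Gi proteins, was also higher at 2.79, as was Gnai2 at 0.86, and Elmo1 was lower at -1.16. Between Sst+ and Sst- cells none of 19 passed edgeR's test, beside 1.04% of all genes.

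In Cajal-Retzius cells against MGE interneurons 13 of 21 listed genes passed, 5 higher and 8 lower, beside 37.5% of all genes (median 0.18 against -0.02 over all genes). Penk, whose enkephalin peptides are ligands of ACKR3, was higher at 4.28, Ramp2, a partner of the adrenomedullin receptor, at 2.15 and Mif at 0.94, while Elmo1 (-3.24), Dock2 (-2.60) and Gnai1 (-2.10) were lower. In IPCs against RGCs 7 of 21 passed, 4 higher and 3 lower, beside 35.6% of all genes (median -0.15 against 0.00), led by Rgs16 at 1.77, Grk3 at 0.98 and Grk5 at 0.67, with Ramp2 (-1.80), Gnao1 (-1.29) and Gnai2 (-1.26) lower. In newborn against deep-layer neurons 9 of 21 passed, 1 higher and 8 lower, beside 32.7% of all genes (median -0.15 against 0.01): Gnai2 was higher at 0.80, and Elmo1 (-1.66), Gnai1 (-1.29) and Grk3 (-0.99) were among those lower.

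Adrenomedullin, which ACKR3 also binds, and its receptor were part of the list. Between fibroblasts and endothelial cells 12 of 21 listed genes passed, 3 higher and 9 lower, beside 39% of all genes (median -0.73 against 0.02). Penk (4.04), Gnao1 (2.27) and Mif (0.76) were higher in fibroblasts, and Elmo1 (-4.64), Adm, which encodes adrenomedullin (-2.86), and Ramp2 (-2.21) were lower. Between mural and endothelial cells 12 of 19 passed, 4 higher and 8 lower, beside 32.7% of all genes (median -0.03 against 0.01). Grk3 (7.40), Gnao1 (2.31) and Mif (0.87) were higher in mural cells, and Elmo1 (-6.15), Dpp4, a peptidase that cleaves CXCL12 (-5.16), and Ramp2 (-5.11) were lower. The fitted value of Grk3 depends on the prior count because endothelial cells held none of its UMIs. Between fibroblasts and IPCs 14 of 25 passed, 9 higher and 5 lower, beside 51.8% of all genes (median 0.33 against -0.01). Calcrl, the adrenomedullin receptor (9.40), Ramp2 (7.75) and Adm (7.06) were higher in fibroblasts, the values for Calcrl and Adm resting on no UMI in IPCs, and the kinase Pak1 (-1.31), the arrestin Arrb2 (-1.29) and Grk3 (-1.21) were lower.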

How the data were processed

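Cells of the E16.5 dorsal telencephalon of 2 WT libraries were profiled with 10x Genomics 3' chemistry. The authors deposited whole-number UMI counts for every gene in every barcode, made with Cell Ranger 7.0.0 on mm10 according to the submitters' processing notes; whether intronic reads were counted is not given in the sources used here. Sequencing is by UMI, so that depth is given in UMIs: 74930397 and 68964234 in all.

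Barcodes counted as cells had 1500 to 60000 UMIs, less than 10% of them mitochondrial. Doublet scores came from simulated doublets of the same library, and the highest were left out at a rate of 0.8% per 1000 cells. Classes were gated by the number of marker genes with a UMI, with a lead of 0.125 in the share of markers over any other class. UMIs were summed per class and library, and classes were compared with edgeR 4.0.16 (quasi-likelihood test, TMM scaling, filterByExpr, Benjamini-Hochberg adjustment over all genes tested, 2 sums per class); the SE is the log2 difference divided by the square root of F. Shares of cells were counted in cells thinned to 1500 UMIs, with 95% Wilson intervals. Clusters (Leiden, resolution 1, 2000 variable genes, 30 principal components) were built in scanpy 1.11.5 without the 3 genes and the pathway list. A count of 0 allows up to 3 UMIs. The tests were checked on simulated counts. That check drew all genes at a common dispersion and altered only well-counted genes, so that it does not cover members with few UMIs. Both classes were drawn from the profile of a single class, so that it does not cover classes in which many genes differ. No support for the calls is drawn from it. Alternatives were a library block, DESeq2 1.42.0, no TMM scaling, no filter, all classes in 1 fit, doublets kept, 3000 to 30000 UMIs with under 5% mitochondrial UMIs, 1 more marker per gate, clusters as classes, and each library alone. Levels without the highest cell of a class, and in cells without a fibroblast or endothelial marker UMI, were added after the data had been seen.

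The members, marker lists and pathway list were chosen with earlier results of these data known, so that no list-wide test was made. Pathway genes were named by rule, up to 3 of the largest differences in each direction with adjusted p under 0.05 in each comparison, and the 5 genes with the highest r among those with at least 100 UMIs were named as most like each member. The libraries differed by more than counting noise (chi-square per degree of freedom 26.9), and each class pair came from the same libraries; deviations of same-numbered sums correlated at 0.0611 to 0.261 over the comparisons.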

Additional observations from a re-analysis of the deposited data

Results flagged for a closer look

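Barcodes under 1500 UMIs, which entered no comparison, held transcripts of all 3 genes. Cxcl12 stood at 24.4 CPM in WT replicate 1 and 26.2 CPM in WT replicate 6 (88 and 84 UMIs). Cxcr4 stood at 12.2 and 13.7 CPM (44 and 44 UMIs). Ackr3 stood at 34.0 and 40.0 CPM (123 and 128 UMIs). A count of 0 would have allowed up to 0.830 and 0.937 CPM there. The source of these UMIs was not tested.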

How the results depend on the processing

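Of the alternative values of the member differences, 175 kept their direction and their side of the threshold, and 12 did not. Without the low-count filter, Cxcl12 between MGE interneurons and excitatory neurons no longer passed (-1.37, adjusted p = 0.0585) and Cxcr4 between IPCs and RGCs passed (-0.96). The latter also passed with library as a replicate block (-0.91), with doublets kept (-0.94) and with cluster-based classes (-1.34); the block changed no other call. With cluster-based classes Cxcl12 between IPCs and RGCs no longer passed (0.43), Ackr3 between newborn and deep-layer neurons passed (-1.37; -1.38 with doublets kept), and Cxcr4 between Sst+ and Sst- cells turned to 0.12. DESeq2 lost Ackr3 between IPCs and RGCs (-1.46) and Cxcr4 between mural and endothelial cells (-1.84). With 1 more marker per gate, Cxcr4 between CGE and MGE interneurons passed (-1.18). The cause of these changes was not tested. With doublets kept, the mean Cxcl12 level of endothelial cells was 296 CPM against 493 CPM, and in cells without a fibroblast or endothelial marker UMI the Ackr3 level of oligodendrocyte precursors was 49.2 CPM (5 cells) against 21.0 CPM. Thinning to 3000 in place of 1500 UMIs moved 43 of 60 shares of cells by more than 1 SD of the libraries.

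With 1 library left out, the difference of Cxcr4 lay between 4.92 and 5.14 for MGE interneurons against excitatory neurons, -0.60 and 0.28 for Sst+ against Sst- cells, 0.13 and 0.63 for Cajal-Retzius cells against MGE interneurons, -4.55 and -4.13 for fibroblasts against endothelial cells, and -1.74 and -1.70 for mural against endothelial cells. Ackr3 lay between 6.44 and 6.65, -0.33 and 0.071, and, for fibroblasts against IPCs, 0.44 and 0.88. Cxcl12 lay between 2.63 and 2.64 for IPCs against RGCs and 6.08 and 6.50 for fibroblasts against IPCs.

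DESeq2 called 435 genes against 782 with edgeR between CGE and MGE interneurons, 62 against 99 between Sst+ and Sst- cells, 1863 against 3922 for Cajal-Retzius cells, 2431 against 4439 for IPCs, 2325 against 4143 for newborn neurons, 2051 against 3801 and 1601 against 2896 for fibroblasts and mural cells against endothelial cells, and 3817 against 5974 for fibroblasts against IPCs. The block gave 1191 between CGE and MGE interneurons and 320 between Sst+ and Sst- cells, where no filter gave 370, 1 more marker 214 and clusters 31. Without TMM scaling the median of all genes shifted by 0.114 for Cajal-Retzius cells against MGE interneurons and by -0.213 for fibroblasts against IPCs, and the share of calls that were higher went from 69.7 to 80.2% (Sst) and from 54.2 to 42.5% (fibroblasts against IPCs). The 6 untested differences did not meet the low-count filter; without it Ackr3 was called between fibroblasts and endothelial cells (adjusted p = 0.0104) and between mural and endothelial cells (0.0132), and Cxcr4 between fibroblasts and IPCs (0.0180), each against 2 UMIs in the lower class.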
